A study of Sus scrofa with 4 samples.

Results

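Kinesins are motor proteins that use ATP to move along microtubules or to take them apart at their ends. One group builds the spindle, moves chromosomes and closes cell division, another carries vesicles, organelles and messenger RNA, and a further group works in cilia and in the sperm tail. The testis uses all of them: Sertoli cells, the tall somatic cells that hold the germ cells, multiply before puberty and then rely on polarised microtubules for transport, germ cells pass through mitosis and meiosis, and spermatids grow a flagellum and reshape the nucleus along a microtubule sleeve called the manchette. The genes described here are the 35 features, of 31908, whose symbol in the deposited feature table starts with KIF and a digit. Of these, 11 were grouped by textbook role as mitotic kinesins, 12 as transport kinesins, 7 as cilium and flagellum kinesins and 5 as others. Kinesins with other symbols, such as CENPE and KIFC1, and those listed by an Ensembl identifier alone are not members.

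Cells of pig testis (Sus scrofa) were profiled by droplet single-cell RNA sequencing at 7, 30, 60 and 90 days after birth, with 1 library per age and no other treatment or genotype in the labels. The labels do not give the breed or the number of animals behind a library, so age cannot be told apart from library or animal, and differences between ages rest on single libraries. The libraries held 96133720, 77992845, 45717373 and 64372068 unique molecular identifiers (UMIs), in order of age, and 12313, 14895, 10841 and 11390 cells were used after filtering, with median depths of 4994, 2860, 2433 and 2538 UMIs. Pairs of libraries shared 44 to 77 cell barcodes, at most 0.608% of the smaller library. Cells were sorted into classes by marker genes, none of them a kinesin, so each class name means cells that resemble that type. Counts were summed over the cells of a class in a library and given as counts per 1000000 UMIs (CPM), and every interval is an exact 95% interval that covers counting error only. A member was called higher or lower when the ratio was at least 2-fold and its interval excluded 1, among genes with at least 20 counts in both sides together. With 1 library per age no p-value was computed. The summed Sertoli markers stood at 17653 to 28895 CPM in Sertoli cells and at 1069 to 3024 CPM in stromal cells. In these pooled sums, fewer cells expressing a gene and less of its RNA per cell cannot be told apart.

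Of the 35 members, 34 had at least 50 counts over all used cells, and totals ran from 60 for KIF26A to 50858 for KIF5B, a subunit of conventional kinesin. The exception was KIF6, a ciliary kinesin, with 9 counts. RefSeq placed 33 members on a chromosome of Sscrofa11.1, the build of the files, and 12 of those overlap another annotated gene there. The strand setting of the counting is not given in the sources used here, so for KIF13A, KIF18A, KIF1C, KIF20A, KIF23, KIF24, KIF27, KIF2A, KIF2C, KIF3A, KIF5A and KIF9 counts may include reads of that neighbour. The genes the results turn on most lie, by RefSeq, at KIF11 (chromosome 14, 104125839 to 104177381), KIF15 (chromosome 13, 27966586 to 28041121), KIF21A (chromosome 5, 70888999 to 71029832), KIF5C (chromosome 15, 3190341 to 3361470), KIF2C (chromosome 6, 166556765 to 166577904), KIF2B (chromosome 12, 30161677 to 30163731), KIF9 (chromosome 13, 30014468 to 30062871) and KIF19 (chromosome 12, 6775695 to 6803066).

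**Figure D1:**
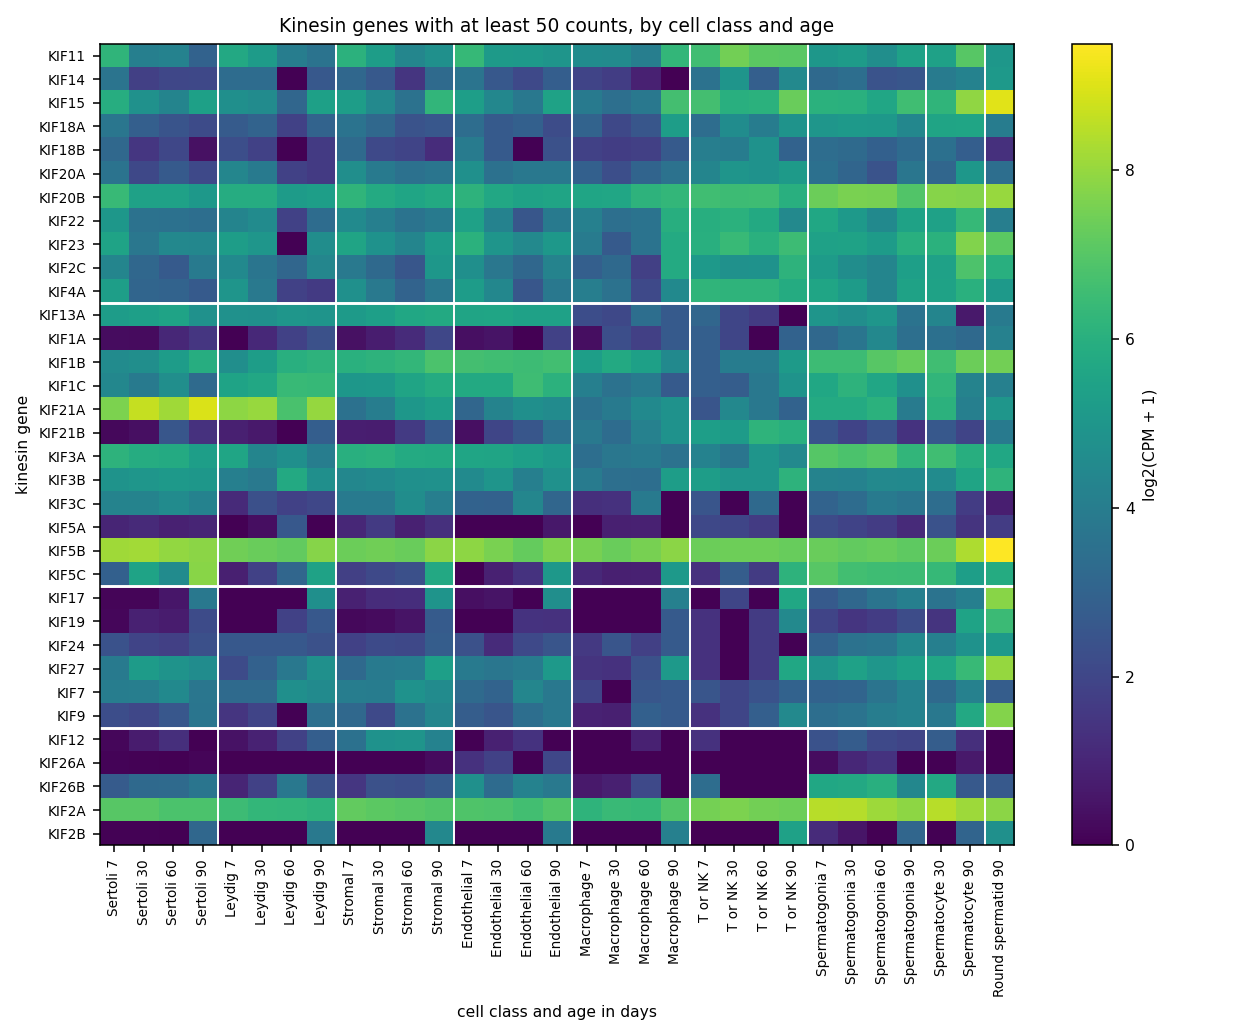
Level of the 34 kinesin genes with at least 50 counts (rows, in the order mitotic, transport, cilium and flagellum, and other, parted by white lines) in the cell classes with at least 50 cells at each age (columns), as log2(CPM + 1). KIF21A stands out in Sertoli and Leydig cells, KIF26B and KIF3A in spermatogonia, and KIF15, KIF17, KIF27, KIF9 and KIF5B in round spermatids.

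The first comparison asked which kinesins separate dividing from non-dividing somatic cells. A Sertoli or stromal cell counted as dividing when at least 3 of 20 markers of the late cell cycle had a count, and as non-dividing when none had. All 11 mitotic kinesins were higher in dividing cells in each of the 4 comparisons, Sertoli and stromal cells at 7 and at 30 days, while none of the transport kinesins was called in any of them. At 7 days 12 of 27 members tested were higher in 1281 dividing than in 1361 non-dividing Sertoli cells, where 4.34% of all genes tested were higher and 0.646% lower, 4.98% in all. At 30 days 12 of 26 were higher in 395 dividing than in 2444 non-dividing Sertoli cells, where 2.59% of all genes tested were higher and 0.541% lower, 3.13% in all. In stromal cells at 7 days, 369 dividing and 1784 non-dividing, 12 of 25 were higher, where 6.18% of all genes tested were higher and 3.12% lower, 9.3% in all. At 30 days, with 271 dividing and 4420 non-dividing stromal cells, 13 of 28 were higher, where 7.29% of all genes tested were higher and 4.36% lower, 11.6% in all. No member was lower in dividing cells in any of the 4.

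Of the motors that set up the bipolar spindle, KIF11 was among the most different kinesins. KIF11, which slides spindle poles apart, stood at 171 CPM in dividing and 3.66 CPM in non-dividing Sertoli cells at 7 days, a log2 ratio of 5.55. At 30 days it stood at 93.1 and 3.15 CPM, a log2 ratio of 4.89 (4.33 to 5.49). In stromal cells KIF11 stood at 401 CPM in dividing and 2.80 CPM in non-dividing cells at 7 days, and at 476 and 2.13 CPM at 30 days. Dividing cells were thus far above non-dividing cells in both libraries and both classes, with intervals that did not overlap. KIF15, which backs up KIF11 on the spindle, reached 131 and 9.85 CPM in dividing and non-dividing Sertoli cells at 7 days. That ratio was below the median of the mitotic kinesins in the same comparison. In stromal cells at 30 days KIF15 reached 261 and 1.60 CPM in dividing and non-dividing cells.

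Motors of chromosomes and of the spindle midzone followed the same pattern. KIF23, the motor subunit of centralspindlin, had log2 ratios of 5.08 and 3.46 in Sertoli cells and of 5.55 and 6.88 in stromal cells, at 7 and 30 days. KIF4A, a chromosome-bound motor that organises the midzone, had 4.87 and 4.61 in Sertoli cells and 5.42 and 6.52 in stromal cells. KIF20A, which brings the chromosomal passenger complex to the midzone, had 4.24 and 4.83 in Sertoli cells and 5.86 and 8.06 in stromal cells. KIF22, another chromosome-bound motor, KIF14, needed for cytokinesis, KIF2C, which removes tubulin at kinetochores, and the chromosome-aligning KIF18A and its relative KIF18B lay between log2 1.85 (KIF18A, Sertoli cells, 30 days) and 7.67 (KIF14, stromal cells, 30 days). KIF20B, which acts late in cytokinesis, had the smallest ratio of the 11 in all 4 comparisons, 2.66 (2.45 to 2.89) and 1.38 (1.15 to 1.61) in Sertoli cells and 3.72 and 3.73 in stromal cells. It stood at 23.5 to 35.8 CPM in the non-dividing cells of the 4 comparisons. KIF14 and KIF18B had only 2 to 9 counts in non-dividing cells, so the counting intervals of their ratios were wide.

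**Figure D2:**
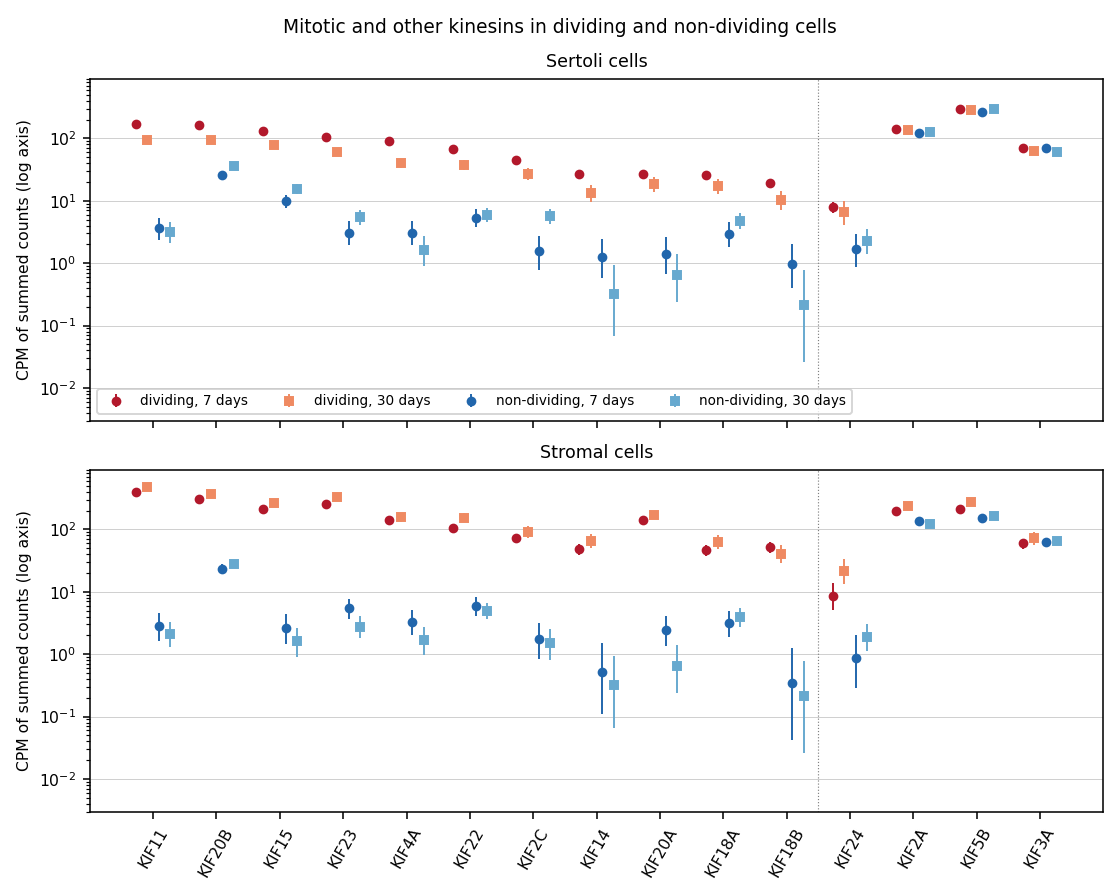
CPM of the 11 mitotic kinesins, KIF24, KIF2A, KIF5B and KIF3A (log axis) in dividing (red, orange) and non-dividing (dark and light blue) Sertoli and stromal cells at 7 and 30 days, with exact Poisson 95% intervals. The dotted line parts the mitotic kinesins, where dividing cells lie above non-dividing cells in all 4 pairs, from the others; KIF5B and KIF3A lie close together.

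The median log2 ratio of the 11 mitotic kinesins was 4.27 and 3.46 in Sertoli cells and 5.55 and 6.88 in stromal cells, at 7 and 30 days, where the median of all genes tested was 0.01, 0.01, -0.04 and -0.06. As a share of all kinesin UMIs, mitotic members made up 49.5% in dividing and 6.74% in non-dividing Sertoli cells at 7 days, and 71.5% and 8.25% in stromal cells. At 30 days these shares were 30.6% and 6.74% in Sertoli cells, and 70.0% and 7.22% in stromal cells. Dividing stromal cells thus carried a larger mitotic share than dividing Sertoli cells at both ages. The gate markers differed in the same order: they summed to 7552 and 9595 CPM in dividing stromal cells and to 4290 and 2341 CPM in dividing Sertoli cells at 7 and 30 days, and the part of this in the difference was not tested.

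Outside the mitotic group, KIF24 was the one member higher in dividing cells in all 4 comparisons. It removes tubulin at the mother centriole and holds back the growth of a cilium, and stood at 7.93 and 1.69 CPM in dividing and non-dividing Sertoli cells at 7 days, a log2 ratio of 2.23 (1.36 to 3.23). In stromal cells it stood at 8.65 and 0.876 CPM at 7 days and at 21.8 and 1.92 CPM at 30 days, from 5 to 21 counts a side; with a gate that also asked for 20 marker UMIs per 10000 it was not called in stromal cells at 7 days. KIF27, a cilium-linked kinesin, was called in stromal cells at 30 days alone, at 28.0 and 12.2 CPM; its log2 ratio at 7 days was 0.80 (0.01 to 1.57) in the same class. KIF2A, a relative of KIF2C that trims microtubules at spindle poles and in resting cells, had log2 ratios of 0.21 and 0.12 in Sertoli cells and of 0.53 and 0.95 in stromal cells and was not called. KIF5B had 0.18 (0.10 to 0.26) in Sertoli cells at 7 days and -0.03 (-0.14 to 0.07) at 30 days. KIF3A, a motor subunit of transport inside cilia, had 0.00 (-0.16 to 0.16) and 0.09 (-0.15 to 0.33). For KIF5B and KIF3A a 2-fold difference lay outside the counting interval in all 4 comparisons.

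Other genes of the same machinery were read from lists. Of 17 spindle and cytokinesis partners tested that were not gate markers, 17 and 15 were higher in dividing Sertoli cells at 7 and 30 days, 17 and 17 in dividing stromal cells, and none was lower. ASPM, a spindle pole protein, stood at 431 CPM in dividing and 2.45 CPM in non-dividing stromal cells at 7 days. Kinesins with other symbols, CENPE at kinetochores (263 and 16.0 CPM in dividing and non-dividing Sertoli cells at 7 days) and KIFC1, which focuses spindle poles (30.7 and 1.55 CPM), were higher in all 4 comparisons. The opposite motor, cytoplasmic dynein with dynactin, behaved otherwise: 1, 1, 1 and 3 of 18 or 19 genes tested were higher, among them in each comparison NDE1, a dynein regulator of mitosis, at 23.4 and 6.89 CPM in Sertoli cells at 7 days. Dividing cells were deeper than non-dividing cells, with medians of 7565 and 4997 UMIs in Sertoli cells at 7 days and 5085 and 3092 UMIs in stromal cells. When a dividing cell also had to carry 20 marker UMIs per 10000, an alternative chosen after seeing the data, all 11 mitotic kinesins were again higher in all 4 comparisons; 13 and 12 members were called higher in Sertoli cells at 7 and 30 days, against 5.53% and 5.4% of all genes, and 11 and 14 in stromal cells, against 7.35% and 7.53%. With every cell thinned to 2000 UMIs, 10 to 13 members were called higher.

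The dividing gate was compared at 7 and 30 days alone. At 60 days the mitotic kinesins together stood at 448 CPM in 505 dividing and 63.4 CPM in 1696 non-dividing Sertoli cells, and at 1172 and 62.8 CPM in 163 dividing and 1865 non-dividing stromal cells. At 90 days the gate held other cells than before: 11 of its 714 Sertoli cells also had 20 marker UMIs per 10000, against 631 of 1281, 131 of 395 and 213 of 505 at 7, 30 and 60 days. It took 51.3% of Sertoli cells at 90 days, where the median depth was 7838 UMIs, against 28.7%, 8.16% and 12.7% at 7, 30 and 60 days. With 20 marker UMIs per 10000 it took 14.1%, 2.71%, 5.36% and 0.79% of Sertoli cells in order of age. In Sertoli cells as a whole, the mitotic kinesins together stood at 392, 138, 138 and 139.9 CPM. The 7-day library was highest, and the later 3 were close to each other. KIF11 stood at 72.7, 16.1, 17.3 and 6.94 CPM in order of age, and KIF4A at 38.6, 7.45, 7.19 and 5.37 CPM. At 30 against 7 days 9 of 11 mitotic kinesins were lower in all Sertoli cells, where 7.53% of all genes tested were higher and 6.54% lower, 14.1% in all. At 90 against 60 days 2 of 11 mitotic kinesins were higher and 2 lower in all Sertoli cells, where 16.8% of all genes tested were higher and 13.8% lower, 30.6% in all. KIF15 stood at 41.1 CPM at 90 days and 18.6 CPM at 60 days, and KIF2C at 13.8 and 5.50 CPM, while KIF11 and KIF18B were lower. KIF15 and KIF2C were also high in spermatids of the 90-day library, and the part of free RNA in their Sertoli values was not tested.

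Among the transport kinesins, KIF21A marked Sertoli cells and Leydig cells, the cells that make testosterone. KIF21A dampens microtubule growth at the cell edge. It stood at 196, 399, 279 and 496 CPM in Sertoli cells in order of age and at 234, 259, 108 and 253 CPM in Leydig cells. At 7 days Leydig cells were above Sertoli cells, and at 30, 60 and 90 days Sertoli cells were the highest class, each time with intervals apart. In stromal cells KIF21A stood at 10.5, 15.3, 31.4 and 39.3 CPM. These values were 5.36%, 3.84%, 11.3% and 7.94% of the Sertoli level, and the summed Sertoli markers in the same stromal cells were 6.06%, 5.24%, 11.2% and 10.5% of theirs. The part of free Sertoli RNA in the stromal counts of KIF21A was not tested. With each cell thinned to 2000 UMIs, 58.5% of Sertoli cells had a KIF21A count at 90 days and 30.8% at 7 days, while 7.08% and 2.05% of stromal cells did.

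KIF5C, an isoform of conventional kinesin best known from neurons, separated the 90-day Sertoli cells from the earlier ones. It stood at 6.44 CPM (5.57 to 7.41), 44.2 CPM (41.5 to 46.9), 22.9 CPM (20.8 to 25.1) and 226 CPM (217 to 234) at 7, 30, 60 and 90 days. The 90-day level was the highest by far, and the order of the others was 30, 60 and 7 days, with no overlap of intervals. In clusters made without kinesins and dividing markers, a cluster of 3816 cells, 3733 from 60 days, had a median of 1506 UMIs. Its top genes included AZU1, PRTN3 and S100A8, genes of neutrophils, yet 51.85% of its cells that joined a class were gated as Sertoli. The part of such cells in the 60-day Sertoli levels, also of KIF21A, was not tested. In the comparison of non-dividing Sertoli cells, 90 cells at 90 days against 1361 at 7 days, KIF5C stood at 245 and 7.32 CPM, a log2 ratio of 5.07 (4.57 to 5.58). In spermatogonia, the stem and dividing germ cells, KIF5C stood at 129, 96.7, 91.8 and 91.2 CPM in order of age. KIF5C was also high in late spermatids, so free RNA from these cells was read beside it. In the 90-day library KIF5C had 43.6 CPM in Leydig, 32.4 CPM in endothelial and 51.8 CPM in stromal cells, where it had at most 7.73 CPM at earlier ages. Counts of KIF5C per count of KIF2B, a spermatid kinesin, were 2.11 in protamine-rich late spermatids, 2.02 to 3.31 in Leydig, interstitial stromal, peritubular myoid and endothelial cells, and 28.4 in Sertoli cells. The summed late spermatid markers were 1198 CPM in Sertoli cells, below the 1660 to 2800 CPM of those 4 classes. The part of free spermatid RNA in the Sertoli counts of KIF5C was not tested.

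**Figure D3:**
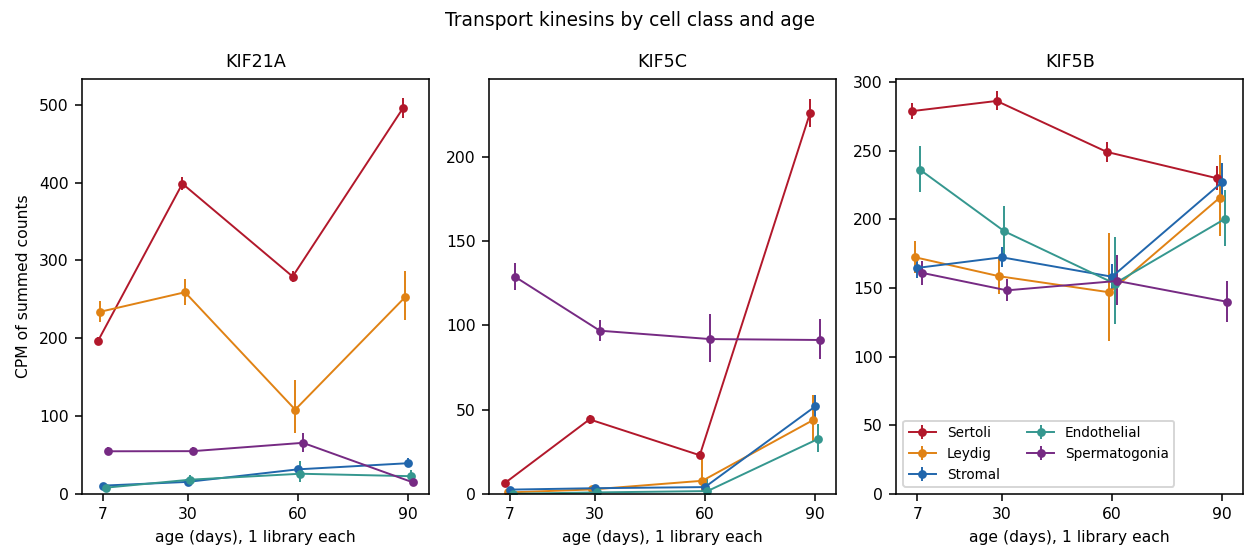
CPM of KIF21A, KIF5C and KIF5B (left to right) at 7, 30, 60 and 90 days in Sertoli, Leydig, stromal and endothelial cells and spermatogonia, 1 library per age, with exact Poisson 95% intervals. KIF21A and KIF5C reach their highest values in 90-day Sertoli cells, 496 and 226 CPM, while KIF5B stays between 139.9 and 286 CPM in the classes shown.

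Taking non-dividing Sertoli cells at 90 against 7 days as a whole, 6 members were higher and 1 lower of 21 tested, where 18.1% of all genes tested were higher and 9.13% lower, 27.2% in all. The higher members were KIF5C, KIF21A (445 and 197 CPM, log2 1.18, interval 0.95 to 1.40), KIF1B, a carrier of vesicles and mitochondria (57.7 and 17.6 CPM), KIF15, KIF23 and KIF9. KIF1C, a vesicle motor, was lower at 4.81 and 17.9 CPM, from 2 counts at 90 days. With TMM factors, which moved the median of all genes by -0.54, KIF21A had a log2 ratio of 0.63 and was not called, while KIF5C had 4.53. Since only 90 Sertoli cells had no dividing marker at 90 days, all Sertoli cells were also compared, 1392 against 4469, an alternative chosen after seeing the data. There KIF5C had a log2 ratio of 5.13 (4.92 to 5.35), KIF21A 1.34 (1.28 to 1.39), KIF1B 1.36 (1.21 to 1.51) and KIF1C -1.21 (-1.52 to -0.91), and 10 members were higher and 10 lower of 32, where 28.8% of all genes tested were higher and 13.3% lower, 42.1% in all. KIF15 and KIF23 had opposite directions in the 2 comparisons, with log2 ratios of -0.53 and -1.16 over all Sertoli cells and 2.36 and 3.44 over the non-dividing ones. The summed late spermatid markers stood at 1527 CPM in non-dividing Sertoli cells at 90 days and 1.13 CPM at 7 days, and their part in the KIF15, KIF23 and KIF9 values was not tested. KIF5B stood at 279, 286, 249 and 230.0 CPM in Sertoli cells in order of age and was called in none of these comparisons.

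In non-dividing stromal cells, 528 at 90 days against 1784 at 7 days, 11 members were higher and none lower of 24, where 23.4% of all genes tested were higher and 5.2% lower, 28.6% in all. The members were KIF11, KIF15, KIF17, KIF1C, KIF21A, KIF23, KIF26B, KIF27, KIF2C, KIF4A and KIF5C. KIF15, KIF17, KIF27, KIF2C and KIF5C are among the kinesins that were high in the spermatids of that library, whose summed late markers reached 2625 CPM in these stromal cells at 90 days and 0.175 CPM at 7 days. KIF1C stood at 71.4 CPM in non-dividing stromal cells at 90 days and 30.6 CPM at 7 days (log2 1.22, interval 0.83 to 1.60), while in the 90-day library it stood at 16.5 CPM in round spermatids and 8.68 CPM in Sertoli cells. The stromal class pools interstitial and peritubular myoid cells, and myoid cells were 815 of 1915 at 90 days and 189 of 3345 at 7 days. These numbers and the next levels are of all cells, dividing or not. In myoid cells KIF1C stood at 81.4 CPM (69.2 to 95.2) at 90 days and 58.1 CPM (41.9 to 78.6) at 7 days. In interstitial cells it stood at 38.6 CPM (31.5 to 46.7) and 29.5 CPM (26.4 to 32.9). Neither class alone showed a 2-fold difference, nor did all stromal cells together, at 56.3 and 31.2 CPM (log2 0.85, interval 0.62 to 1.08). The part of myoid cells in the ratio of non-dividing cells was not tested. The part of free RNA in these ratios was not tested further, and with 10% of each sum taken as the library profile and subtracted 7 members were called. With TMM factors KIF1C had a log2 ratio of 0.69 and was not called. Over all stromal cells, 1915 at 90 days and 3345 at 7 days, 11 members were higher and 5 lower of 32, where 28.2% of all genes tested were higher and 5.62% lower, 33.8% in all, and the 5 lower were mitotic kinesins.

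In Leydig cells, 281 at 90 days against 502 at 7 days, 5 members were higher and 5 lower of 24, where 22.2% of all genes tested were higher and 7.18% lower, 29.4% in all. Of the 11 mitotic kinesins 4 were lower and none higher. KIF11 had a log2 ratio of -2.23, and KIF4A stood at 2.03 and 30.3 CPM, KIF20A at 2.03 and 19.4 CPM and KIF22 at 9.12 and 18.6 CPM, at 90 and 7 days. KIF15 stood at 41.5 and 25.6 CPM and KIF2C at 19.3 and 21.7 CPM, with no call. KIF3A was lower, with a log2 ratio of -1.63 (-2.49 to -0.88). KIF1B (68.9 and 24.7 CPM) and KIF7, a ciliary regulator of hedgehog signalling (22.3 and 8.61 CPM), were higher, though with TMM factors their log2 ratios were 0.92 and 0.81 and neither was called. KIF5C, KIF27 and KIF17 were higher as well, the last with 25 counts at 90 days and none at 7 days, at least 43.1-fold counting 3 UMIs for the 7-day cells, beside 1911 and 0.979 CPM of late spermatid markers. KIF21A stood at 253 and 234 CPM and was not called.

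Germ cells were compared by stage within the 90-day library, where all stages had at least 50 cells. Between 377 spermatocytes, the cells in meiosis, and 220 spermatogonia 12 members were higher in spermatocytes and 4 lower of 30 tested, where 17.5% of all genes tested were higher and 18.2% lower, 35.8% in all. Of the 11 mitotic kinesins 7 were higher and none lower in spermatocytes. KIF11 stood at 131 CPM in spermatocytes and 42.6 CPM in spermatogonia, a log2 ratio of 1.62 (1.31 to 1.94), and KIF23 at 208 and 63.3 CPM, 1.72 (1.47 to 1.98). The median of the group was 1.35, where that of all genes was -0.12. Dividing markers summed to 4078 CPM in spermatocytes and 1394 CPM in spermatogonia.

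Of 6 cilium and flagellum kinesins tested, 3 were higher in spermatocytes and none lower. KIF19, a kinesin that sets the length of motile cilia in mouse, stood at 44.2 CPM in spermatocytes and 3.65 CPM in spermatogonia, a log2 ratio of 3.60 (2.64 to 4.75). KIF9, which acts in the beating of the mouse sperm tail, stood at 52.6 and 17.4 CPM, and KIF27 at 84.2 and 41.0 CPM. KIF17, KIF7 and KIF24 were not called, KIF17 standing at 16.0 CPM in spermatocytes and 16.2 CPM in spermatogonia. The lower members were transport kinesins and KIF26B, a kinesin-like protein of tissue development. KIF13A, an endosome motor, had 2 counts in spermatocytes and 28 in spermatogonia, 0.563 and 11.4 CPM. KIF3C stood at 2.25 and 11.8 CPM, KIF26B at 5.35 and 20.3 CPM, and KIF5C at 38.6 and 91.2 CPM. KIF5B, of the same subfamily as KIF5C, lay on the other side at 322 and 139.9 CPM, a log2 ratio of 1.20 (1.03 to 1.38). With each cell thinned to 2000 UMIs, 6 members were higher and 1 lower in this comparison.

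Between 464 round spermatids, which have left meiosis, and the spermatocytes, 9 members were higher in round spermatids and 6 lower of 30, where 22.5% of all genes tested were higher and 26.2% lower, 48.7% in all. KIF17, which in mouse spermatids carries a transcriptional coactivator, stood at 221 CPM in round spermatids and 16.0 CPM in spermatocytes, a log2 ratio of 3.78 (3.37 to 4.22). KIF9 stood at 209 and 52.6 CPM (log2 1.99, interval 1.72 to 2.27), and KIF27 at 254 and 84.2 CPM (log2 1.59, interval 1.36 to 1.82). KIF19 had a log2 ratio of 0.99, just short of 2-fold. KIF5B stood at 721 and 322 CPM (log2 1.16, interval 1.04 to 1.29), and was higher in round spermatids than in any other class at 90 days. KIF13A, KIF1A, KIF21B and KIF2B were also called higher, from 2 to 35 counts a side.

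The mitotic kinesins parted at this step. KIF11 was lower at 31.4 CPM in round spermatids and 131 CPM in spermatocytes (log2 -2.06, interval -2.55 to -1.60), KIF22 at 15.7 and 80.2 CPM (log2 -2.35, interval -3.07 to -1.71), and KIF18A and KIF20A were lower too. KIF18B was lower with 2 counts in round spermatids, and its log2 ratio had the opposite sign, 0.30, with cells thinned to 2000 UMIs. KIF15 went the other way, at 538 CPM in round spermatids and 244 CPM in spermatocytes (log2 1.14), the one mitotic kinesin called higher. KIF20B and KIF23 stood at 263 and 138 CPM in round spermatids and 214 and 208 CPM in spermatocytes and were not called. Of 17 spindle and cytokinesis partners tested, 11 were lower in round spermatids and none higher, and among 19 dynein and dynactin genes 3 were higher and 7 lower.

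Late spermatids were harder to separate, because RNA of their markers was present in every class of the 90-day library, at 896 to 3081 CPM outside the spermatid gates. Of 1951 cells in the late spermatid gate, 1418 had under 1% of their UMIs from these markers. In that gate 10 members were higher and 7 lower than in round spermatids, of 31 tested, where 28.6% of all genes tested were higher and 16% lower, 44.6% in all. A narrower gate, chosen after seeing the data, kept the 216 cells with at least 2% of UMIs from the markers, among them the protamine genes that pack sperm DNA. There 5 members were higher and 13 lower of 27, where 13.7% of all genes tested were higher and 43.5% lower, 57.2% in all.

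KIF5C, KIF2C and KIF2B were higher in late than in round spermatids in both gates. In the narrow gate KIF5C stood at 1032 CPM in late and 56.1 CPM in round spermatids, a log2 ratio of 4.20 (3.86 to 4.56); in the wide gate late spermatids stood at 314 CPM (log2 2.48, interval 2.15 to 2.84). KIF2C stood at 657 and 62.1 CPM in the narrow gate (log2 3.40, interval 3.07 to 3.75) and at 211 CPM in late spermatids of the wide gate. KIF2B, of the same microtubule-trimming subfamily as KIF2C, stood at 488 and 26.2 CPM (log2 4.22, interval 3.73 to 4.76) and at 129 CPM in the wide gate. All 3 had their highest level of the 90-day library in the late spermatid gate, with intervals above every other class. KIF21B and KIF14 were higher in the narrow gate alone, with log2 ratios of 2.38 (1.64 to 3.18) and 1.35 (0.82 to 1.91), against 0.81 (0.11 to 1.59) and -0.02 (-0.50 to 0.50) in the wide gate.

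KIF5B, KIF9, KIF19 and KIF20B were lower in late than in round spermatids in both gates. KIF20B stood at 127 CPM in late spermatids of the wide gate and 263 CPM in round spermatids. KIF5B stood at 84.0 CPM in narrow-gate late and 721 CPM in round spermatids (log2 -3.10, interval -3.43 to -2.79), so that KIF5B and KIF5C lay on opposite sides at this step, as they did between spermatocytes and spermatogonia. KIF9 stood at 37.4 and 209 CPM, KIF19 at 8.40 and 87.5 CPM, KIF20B at 24.3 and 263 CPM and KIF23 at 13.1 and 138 CPM. KIF15, KIF17 and KIF27 were not called in the narrow gate, at 665, 287 and 192 CPM in narrow-gate late spermatids and 538, 221 and 254 CPM in round spermatids. In the wide gate they stood at 328, 109 and 110.0 CPM in late spermatids, and KIF17 (log2 -1.01) and KIF27 (log2 -1.20) were called lower. The gates differed in direction for KIF11, at 3.74 CPM in late spermatids of the narrow and 68.4 CPM in those of the wide gate, against 31.4 CPM in round spermatids. Other members also had log2 ratios of opposite sign in the 2 gates, among them KIF17, KIF18B, KIF22 and KIF7. KIF4A, KIF14, KIF15, KIF18A, KIF26B and KIF3A changed sign as well, some of them from a ratio near no difference in the wide gate. KIF4A had a log2 ratio of -2.62 in the narrow gate. In the wide gate it stood at 47.8 CPM in late spermatids, against 34.4 CPM in round spermatids.

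**Figure D4:**
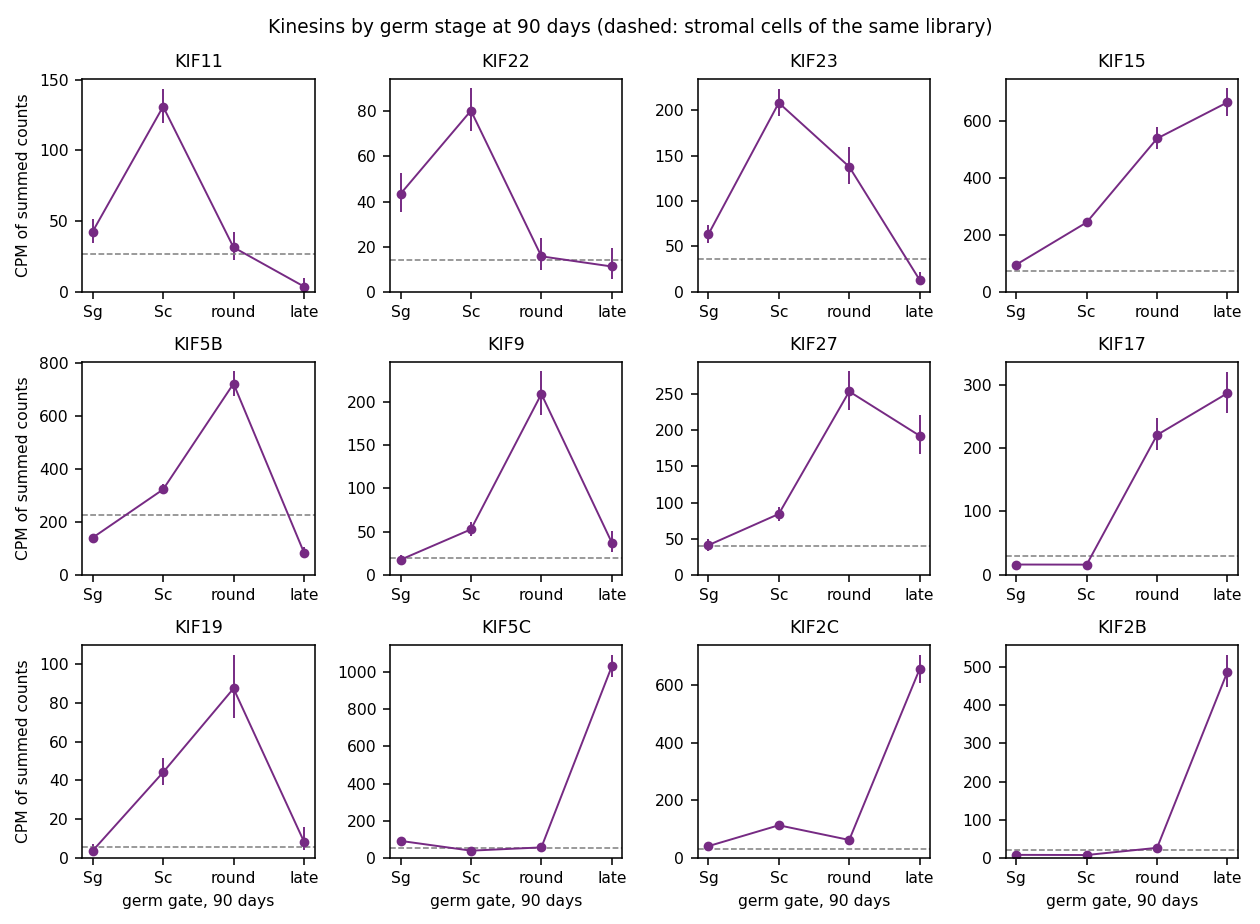
CPM of 12 kinesins in germ cells of the 90-day library in the order spermatogonia (Sg), spermatocytes (Sc), round spermatids and late spermatids with at least 2% of UMIs from their markers, with exact Poisson 95% intervals; the dashed line is the level in stromal cells of that library. KIF11, KIF22 and KIF23 peak in spermatocytes, KIF5B, KIF9, KIF27 and KIF19 in round spermatids, and KIF5C, KIF2C and KIF2B in late spermatids.

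Spermatogonia could be followed across the 4 ages, with 386, 721, 154 and 220 cells. At least 3 dividing markers had a count in 97.2%, 83.1%, 58.4% and 82.3% of them. Deep cells pass this gate more easily, and the cluster in which spermatogonia were the main class had a median of 12370 UMIs. These shares are therefore not read as shares of dividing cells. KIF26B stood at 49.5, 52.5, 62.8 and 20.3 CPM in order of age, the highest class at 7 and 60 days with intervals apart; KIF2A at 356, 349, 271 and 238 CPM; and KIF3A at 125, 112, 127 and 75.4 CPM. All 3 were lowest at 90 days. KIF1B ran the other way, at 89.2, 90.7, 129 and 157 CPM, and KIF21A was at 54.7, 54.8, 65.5 and 14.6 CPM. At 7 days KIF18A, KIF20B, KIF26B, KIF27, KIF2A, KIF3A and KIF5C had their highest level in spermatogonia with an interval above that of every other class. KIF2B was also highest there, but from 10 counts, at 1.24 CPM (0.59 to 2.28). Its interval overlapped that of T or natural killer cells, which had 0 counts and an upper bound of 5.79 CPM. Among the other classes, KIF21B was highest in T or natural killer cells at 7, 30 and 60 days, at 39.3, 35.7 and 70.6 CPM, with 0.165, 0.303 and 4.86 CPM in Sertoli cells. KIF12, a kinesin known from kidney and liver epithelium, was found in stromal cells at 10.7, 27.7, 29.1 and 17.6 CPM and in Sertoli cells at no more than 1.43 CPM. At 30 days its highest class was peritubular myoid cells, a part of the stromal class.

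The members not yet described were low or broad. KIF3B and KIF3C, partners of KIF3A in kinesin-2 motors, stood at 23.4, 25.3, 29.4 and 29.0 CPM and at 13.3, 13.7, 20.7 and 10.3 CPM over whole libraries in order of age, and KIF3B reached 71.1 CPM in round spermatids. KIF13A reached 66.4 CPM in peritubular myoid cells at 90 days, above every other class of that library. KIF7 stood at 15.1, 14.7, 27.9 and 23.0 CPM in stromal cells in order of age, and at 60.0 CPM in pericytes or vascular muscle cells at 30 days, the highest class of that library. KIF1A, a vesicle motor of neurons, reached 20.8 CPM in spermatogonia at 60 days. KIF5A, the third conventional kinesin and also known from neurons, stood at 1.30, 1.56, 1.10 and 1.48 CPM over whole libraries, and KIF26A, a kinesin-like protein of development, at no more than 3.09 CPM in any class, in endothelial cells at 90 days. These 2 were too few in counts to be ordered between classes.

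Whole libraries were compared last. At 30 against 7 days 2 members were higher and 3 lower of 33 tested, where 7.47% of all genes tested were higher and 2.68% lower, 10.1% in all. KIF12 at 7.73 and 2.47 CPM and KIF27 at 27.9 and 13.4 CPM were higher, and KIF11 at 28.5 and 63.1 CPM, KIF18B at 3.72 and 7.96 CPM and KIF4A at 16.1 and 36.0 CPM were lower. At 60 against 30 days KIF21B alone of 33 was called, at 5.94 and 1.69 CPM, where 7.72% of all genes tested were higher and 5.77% lower, 13.5% in all. T or natural killer cells made up 1.79% and 1.06% of the cells and gave 33 of 226 and 12 of 101 KIF21B counts. Cells gated as Sertoli gave 92 counts at 60 days and 7 at 30 days, 4.86 and 0.303 CPM. Besides the 60-day cluster with neutrophil genes, a cluster of 1149 cells, 1003 from 60 days, had the B lineage markers MZB1 and JCHAIN among its top genes. Of its cells that joined a class, 50.43% were gated as Sertoli. The part of such cells in the 60-day Sertoli counts of KIF21B was not tested. At 90 against 60 days 19 members were higher and 2 lower of 34, where 21.8% of all genes tested were higher and 11.6% lower, 33.4% in all. KIF2B stood at 26.2 and 0.0789 CPM, from 1308 and 3 counts, KIF17 had a log2 ratio of 4.59, KIF19 stood at 12.8 and 0.815 CPM, KIF2C at 64.7 and 8.31 CPM, and KIF15 at 149.8 and 22.0 CPM. KIF13A and KIF3C were lower, with log2 ratios of -1.02 and -1.01. Round and late spermatid gates had at least 50 cells at 90 days and at no earlier age, so the members that were high there could be read by stage in that library alone.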

How the data were processed

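Libraries were made with 10x Chromium 3′ chemistry version 3, per the labels' protocols, and the deposited files hold raw counts of UMIs per gene and barcode, made with Cell Ranger 5.0.1 per the file headers. The submitters' processing notes also name bcl2fastq, Scanpy 1.7.1 and the build Sscrofa11.1. The members and gene lists were chosen with earlier results of these data known.

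Of 69602 barcodes, cells with at least 1000 UMIs, 500 genes and at most 15% mitochondrial UMIs were kept, and per library the share expected as doublets (0.8% per 1000 cells) with the highest Scrublet scores was removed, which left 49439. A cell joined the marker set with the highest score if at least 3 of its markers had a count and the score was 1.5 times that of its rivals. Sets of germ stages next to each other, and of stromal, myoid and vascular cells, were not rivals; stromal cells here are interstitial stromal and peritubular myoid cells. A score is the mean over a set's markers of log-scaled counts, each relative to its mean in cells with a count. Ratios carry exact conditional binomial intervals, and the method was tested on simulated data. Every member with at least 50 counts is described by group; genes of other lists are given as counts, with the largest ratios named. Groups under 50 cells were left out. Of 7-, 30-, 60- and 90-day cells, 2368, 1481, 3004 and 4053 joined no class. Tools were Scanpy 1.11.5, NumPy 2.4.6, SciPy 1.17.1, pandas 2.3.3, and edgeR 4.0.16 for TMM factors. Alternatives changed the doublet, cell and count filters, the gates, the scaling, the depth and the share of free RNA.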

Additional observations from a re-analysis of the deposited data

Results flagged for a closer look

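Some members had opposite directions in different classes between 90 and 7 days. The difference between classes was not tested in any of these cases, since each age is 1 library. KIF1C, a vesicle motor, had a log2 ratio of -1.89 in non-dividing Sertoli cells and 1.22 in non-dividing stromal cells; over all Sertoli cells it was -1.21 (-1.52 to -0.91), and with TMM factors it was 0.69 in non-dividing stromal cells. Over all stromal cells, dividing or not, KIF1C had a log2 ratio of 0.85 (0.62 to 1.08) and was not called. Peritubular myoid cells were 815 of these 1915 stromal cells at 90 days and 189 of 3345 at 7 days. KIF1C stood at 81.4 and 58.1 CPM in all myoid cells and at 38.6 and 29.5 CPM in all interstitial cells. In non-dividing stromal cells KIF11 had a log2 ratio of 2.35, while in Leydig cells it had -2.23. KIF4A had 1.82 in non-dividing stromal cells and -3.90 in Leydig cells. The Leydig gate held dividing and non-dividing cells together, and over all stromal cells KIF11 and KIF4A had log2 ratios of -1.35 and -1.07.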

How the results depend on the processing

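Each of the 13 comparisons was repeated under up to 11 alternatives and 3 more chosen after seeing the data. The number of members called stayed within 1.5 times of that given in 121 repeats and did not in 12; in the 4 comparisons of dividing and non-dividing cells it did in all, with 10 to 15 called higher and at most 1 lower. Of single ratios, 1310 lay inside the interval given, 195 outside it and 11 were marked as reversed in sign. These 11 do not hold every change of sign, and the cause was not tested. Thinning to 2000 UMIs gave 7 called members for spermatocytes, 11 for late spermatids, 2 for 60 against 30 days and 5 for Leydig cells. Without doublet removal, and with a gate lead of 2 times and 4 markers, late spermatids had 11. The stricter cell filter gave 3 at 60 against 30 days. Classes from clusters gave 12 for Sertoli cells at 90 against 7 days, and all cells of the class gave 20. For stromal cells, subtracting 10% free RNA gave 7 and no minimum of counts 17; for Leydig cells no minimum gave 16. Marked as reversed was KIF18B in round spermatids (0.30, thinned). In late spermatids with 2% marker UMIs, KIF11 (-3.07), KIF17 (0.38), KIF18B (-0.68), KIF22 (-0.49) and KIF7 (-0.68) were marked. Over all cells of the class at 90 against 7 days, KIF15 (-0.53) and KIF23 (-1.16) in Sertoli cells were marked. In stromal cells KIF11 (-1.35), KIF23 (-0.36) and KIF4A (-1.07) were marked. Other ratios changed sign without this mark, such as those of KIF15 and KIF4A in late spermatids with 2% marker UMIs. TMM factors moved the median of all genes by -0.54, -0.53 and -0.56 in Sertoli, stromal and Leydig cells at 90 against 7 days, so levels there are relative to that shift, and by at most 0.15 in size in the others, while the gate of 2% marker UMIs moved it by -0.86. Cluster classes gave no value for the 3 germ comparisons. The automatic doublet threshold marked 1 cell at 60 days and did not work there; the cells removed there had a median of 1789 UMIs, against 2433 in those kept. No paired analysis was possible because each age has 1 library.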
